A study of Mus musculus with 9 samples.

Results

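Prkg1 and Prkg2 encode the mouse cGMP-dependent protein kinases, and their transposon insertions were followed through SHH medulloblastomas of Lazy Piggy mice. The members were all positions that the deposited table assigns to either gene in tumours of the arm with tamoxifen or the arm without. The rule gave 750 positions, of which 638 belonged to Prkg1 and 112 to Prkg2, out of 1540872 positions in both arms and 2341920 in the whole series. Prkg1 came to attention because its called JX sites were found with tamoxifen and not without, so it was chosen by that contrast, which is described here and not tested. Prkg2 was taken in as its paralogue.

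The labels describe frozen tumours of the genotype lazy_piggy, and the authors' sample sheet gave tamoxifen to 72 animals (TAM+) and none to 47 (TAM-), with samples marked PT. The Lazy Piggy element joins a Sleeping Beauty (SB) and a piggyBac (PB) transposon, and the study set both arms side by side to look for genes that maintain the tumour. IR libraries were amplified from the SB part, PB libraries from the PB part and JX libraries from the boundary of both. The sheet lists chromosome 10 as the element's donor in 90 animals and chromosome 7 in 29. Listed tamoxifen days ranged from 4 to 249 with a median of 49, in the 71 treated animals with a single number. Strain, age, the tamoxifen dose and the driver of each transposase were not given in the sources used here. Genomic DNA carries no expression, so the labelled tumour type could not be checked against marker genes, and nothing here measures a Prkg1 transcript or kinase activity.

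cGMP-dependent kinases are serine/threonine kinases that are switched on when cGMP binds their regulatory domain. Guanylate cyclases make cGMP in response to nitric oxide or natriuretic peptides, and phosphodiesterases break it down. Prkg1 encodes a mainly soluble kinase known from smooth muscle, platelets and cerebellar Purkinje cells. Prkg2 encodes a membrane-anchored kinase known from intestinal secretion and bone growth.

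Counts per tumour ranged from 295999 to 6337624 in IR, from 116836 to 2025775 in JX and from 1714 to 2853048 in PB. The median JX count was 441808 with tamoxifen and 287429 without, while the IR medians were 3115243 and 3143569. A position that was the highest of 1 tumour was often also listed in tumours of the same sequencing lane. Over 112 tumours of a single lane, the highest IR site was listed by a median of 100% of lane mates and 1.96% of animals in other lanes, and the highest JX site by 89.9% and 1.04%. A listed position was therefore not counted as an insertion of that tumour. A called site needed a minimum of 10 counts in a tumour and a minimum of 1% relative to the highest site in the same kind of library. A site called in several tumours was credited to the one in which it held the highest share of counts.

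Prkg1 was listed in all 119 tumours and Prkg2 in 66, against a median of 27 tumours over 22206 genes. Positions in the body of Prkg1 ran over 1195 kb of chromosome 19, from 30643517 to 31838562 in mm9, and the gene ranked number 29 of 19858 by this span. Its 593 positions inside the gene came to 49.6 per 100 kb. The median over the 4314 genes spanning at least 50 kb was 73.3 per 100 kb, and 19.2% of those genes had fewer than Prkg1. The high number of listed positions thus went with a long gene and not with a dense one. Positions in the body of Prkg2 ran over 103 kb of chromosome 5, from 99363184 to 99465989, at 71.0 per 100 kb.

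Most of these positions were seen once and with few counts. Of the 638 Prkg1 positions, 545 (85.4%) were listed in 1 tumour and 20 in at least 3. Of its 1278 lines in the table, 409 (32.0%) had a single count. Of the 112 Prkg2 positions, 92 (82.1%) were listed in 1 tumour and 3 in at least 3. Within Prkg1, intron 3 had 162 positions, intron 2 had 156 and intron 5 had 86. Before nearby positions were joined, intron 5 had 85.5 positions per 100 kb, against 56.4 in intron 2 and 53.1 in intron 3. Its number includes neighbouring positions of a single site, which ran from 30876704 to 30876772. These densities therefore do not rank the introns by separate insertions. Intron 5 also held 540742 of the 576023 counts of the gene. A single position lay in an exon of Prkg1, and 45 lay upstream of the gene. Prkg2 had 4 positions in exons.

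**Figure D1:**
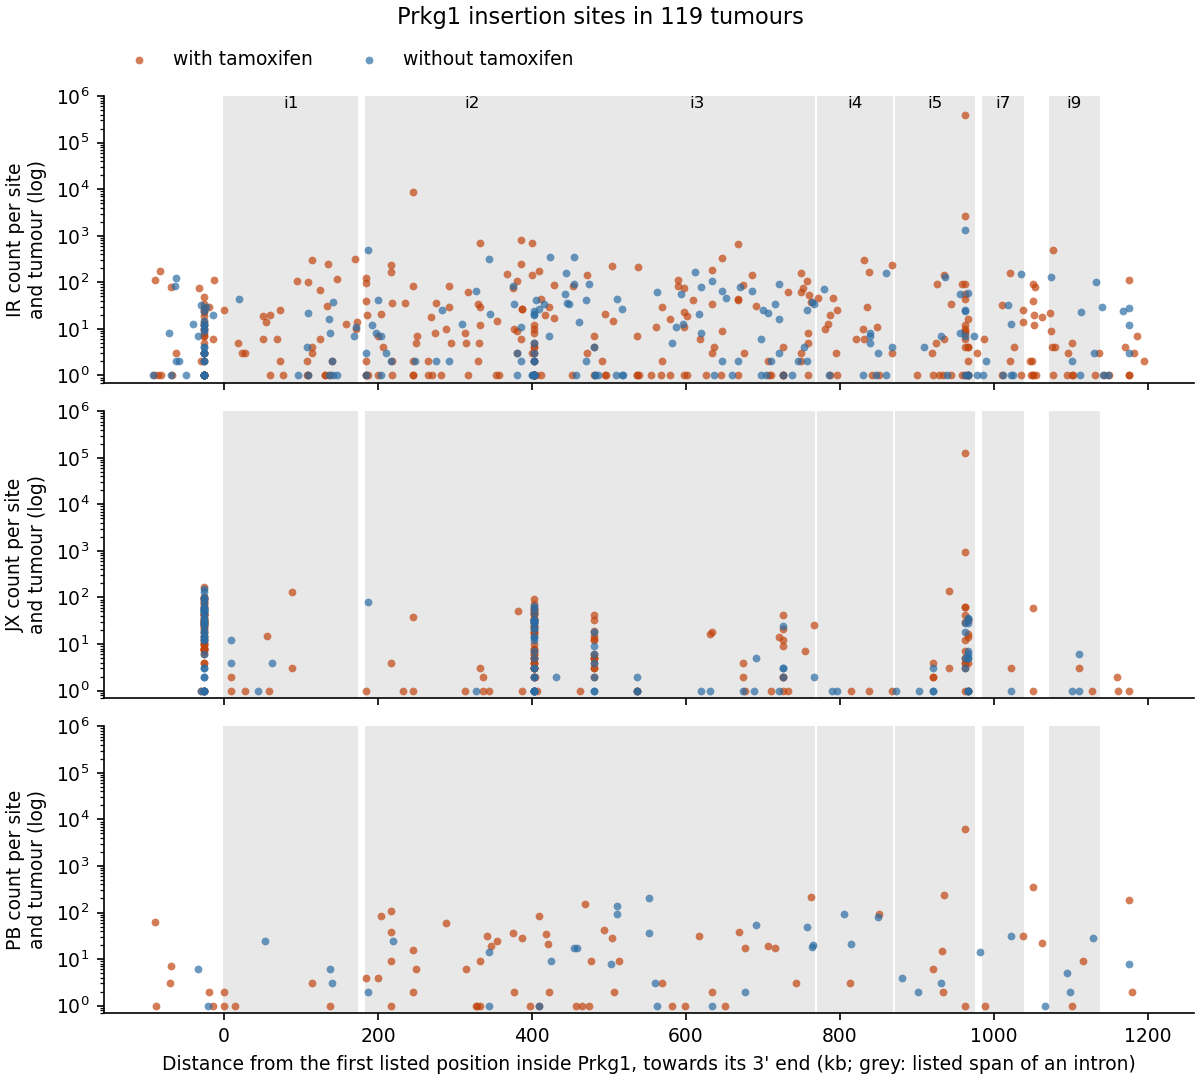
Counts per Prkg1 site and tumour on a log scale, against the distance in kb from the first listed position inside the gene, for IR, JX and PB libraries in 119 tumours. Each point is 1 site in 1 tumour and grey bands are the listed spans of the long introns; 1 tumour stands alone in intron 5 in all 3 panels, and in JX columns of points mark positions that many tumours of both arms list.

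1 tumour with tamoxifen carried Prkg1 as a major insertion, in intron 5 at position 30876704. Its site held 402834 IR counts, which was 20.8% of the IR counts of the tumour (95% Wilson interval 20.7 to 20.9), and 124709 JX counts, which was 23.5% (23.4 to 23.6). In PB the site lay at 30876877 and held 6360 counts or 9.47% (9.26 to 9.70). Intervals here cover counting error only, since reads without molecular identifiers are not independent molecules. The site was the highest of 41 called JX sites in that tumour, the 2nd of 10 called IR sites and the 3rd of 53 called PB sites. Its JX share was above the median of 15.8% that the highest JX site of a tumour held over 119 tumours. In IR and PB its shares were below the medians of the highest site, which were 23.9% and 33.0%.

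Other sites of this tumour also held large shares. A site in intron 1 of En2, a homeobox gene of midbrain and cerebellum, held 15.0% of IR counts, and this En2 position was listed in all 119 tumours. A position on chromosome 14 with no listed gene held 14.1%. The En2 position was thus not particular to this tumour. Which of the high sites matters to the tumour cannot be told from these counts.

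The 2 ends of the element contributed unequally to the intron 5 site. The left IR library held 402490 counts within 1000 bp of it, 35.1% of that library, and the right IR library held 344 or 0.0435%. The left JX library held 123004 counts (32.2%) and the right JX library 1706 (1.14%). The left PB library held 6360 counts (11.8%) and the right PB library 0. The site was therefore mainly a left-end site in each kind of library. In left JX reads the element was listed in the same orientation as Prkg1 and in right JX reads in the opposite one. The PB position lay 173 bp from the IR and JX position. Among 1497 called PB sites with a called IR site of the same tumour within 1000 bp, the median distance was 78 bp (quartiles 43 and 121), and 12.0% lay 173 bp or farther.

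The same position was listed at low counts in other tumours, mostly of the same lane. All 14 other tumours of lane 2 listed it in IR and JX together, with 9 to 3607 counts and a median of 35. 10 of those had tamoxifen and 4 had not. Of the 104 tumours of other lanes, 3 listed it, with 1 to 61 counts. The tumour itself held 527543 counts, which was 99.0% of all counts at the position. Listing at this position went with the sequencing lane in both arms, and the part of carry-over between libraries in these low counts was not tested.

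**Figure D2:**
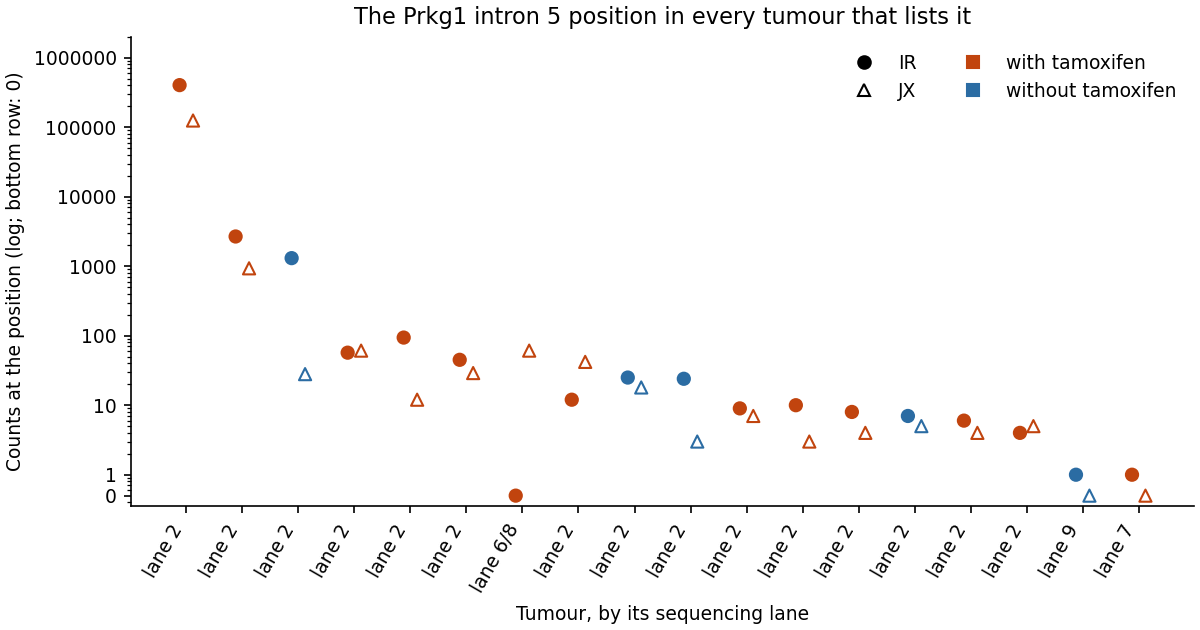
IR counts (filled circles) and JX counts (open triangles) on a log scale at the Prkg1 intron 5 position, for the 18 tumours that list it, each labelled with its sequencing lane and coloured by arm. The bottom row is 0; the highest tumour has 402834 IR counts, the next has 2675, and 15 of the 18 tumours were in lane 2.

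Outside that tumour Prkg1 held a small share of the counts in both arms. In IR libraries Prkg1 was listed in 69 of 72 tumours with tamoxifen, at 0% to 20.8% of counts with a median of 0.00306%, and in 44 of 47 without, at 0% to 0.0818% with a median of 0.00149%. In JX libraries it was listed in 69 and 43 tumours, at 0% to 23.5% with a median of 0.0109%, and at 0% to 0.0734% with a median of 0.00953%. In PB libraries it was listed in 28 and 14 tumours, at up to 9.51% and up to 0.0488%, with a median of 0% in both arms. The next treated values, 0.251% (IR), 0.116% (JX) and 0.177% (PB), came from different tumours. Without the tumour of the intron 5 site the treated medians were 0.00291% in IR and 0.0109% in JX. Once that tumour was set aside, 3 of the 71 treated tumours lay above the highest untreated one for IR, 5 for JX and 3 for PB. The others lay within the untreated range. Some of these values still came from the intron 5 position in other tumours of lane 2. That position held 0.0810% of IR counts in the untreated tumour at 0.0818%. It held 0.114% of JX counts in the treated tumour at 0.116%.

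Prkg2 held less. In IR it was listed in 36 tumours with tamoxifen, at up to 0.0240% of counts, and in 23 without, at up to 0.0167%. In JX it was listed in 10 and 7 tumours, at up to 0.0319% and 0.0329%, and in PB in 9 and 7, at up to 0.0626% and 0.00650%. Except in IR with tamoxifen, where the median was 1.12e-05%, the median tumour of each arm listed Prkg2 at 0%.

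**Figure D3:**
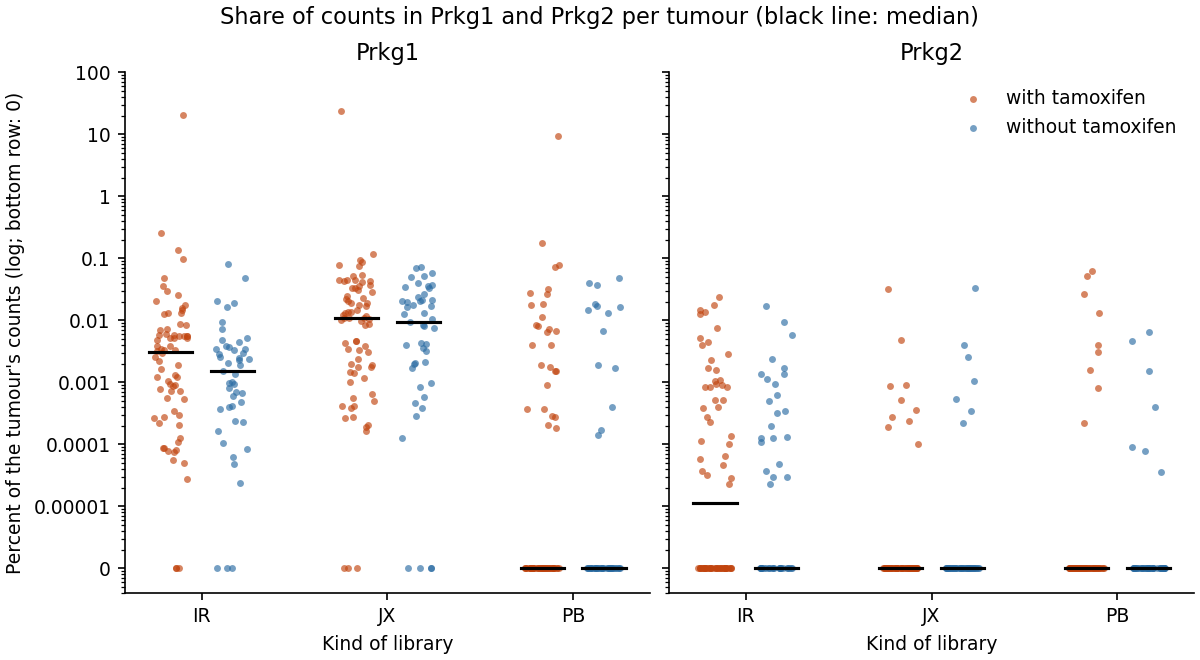
Percent of each tumour's counts that lay in Prkg1 (left) and Prkg2 (right), on a log scale, by kind of library and arm; each point is 1 tumour, the black line is the median and the bottom row is 0. A single tumour with tamoxifen lies at 20.8% (IR), 23.5% (JX) and 9.51% (PB) for Prkg1, every other tumour is at or below 0.251%, and the arms overlap.

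Called JX sites of Prkg1 were credited to 6 of 72 tumours with tamoxifen (8.33%, 95% Clopper-Pearson interval 3.12 to 17.3) and to 0 of 47 without. A floor of 3 tumours allows a share of up to 6.38% there, and the Clopper-Pearson upper limit is 7.55%. This is the contrast that chose the gene, and credit gives each site to 1 tumour only. The intervals therefore do not measure the spread between tumours and lend no support to a difference between arms. Of 220 genes credited in at least 3 tumours in JX, 44 (20%) had sites with tamoxifen and none without. By Fisher's exact test between arms, 1 of the 220 genes (0.455%) had an unadjusted p under 0.05 and 0 passed after Benjamini-Hochberg adjustment. In IR, Prkg1 had called sites in 2 tumours with tamoxifen and 0 without, and in PB again in 2 and 0. With a minimum of 0.1% of the highest site the PB numbers were 6 of 72 (8.33%) and 4 of 47 (8.51%), which turns the direction. Of the genes credited in at least 3 tumours, which do not include Prkg1 in these 2 kinds of library, 11 of 38 in IR (28.9%) and 13 of 55 in PB (23.6%) had none without tamoxifen. By Fisher's exact test 0 of the 38 IR genes and 1 of the 55 PB genes (1.82%) had an unadjusted p under 0.05, and 0 passed the adjustment.

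The 6 credited JX sites were of unequal weight. The intron 5 site described above held 124709 counts and the next highest, 171. A second site in intron 5, at 30897319, had 135 counts, all from the left JX library, and 0 IR counts in its tumour. The other 4 were at positions spread over many tumours, meaning that at least 3 listed them and no tumour held over 50% of the counts. They were 31112821 and 31358186 in intron 3, with 41 and 42 counts, 31436492 in intron 2 with 48, and 31864095 with 171 counts at 24.572 kb upstream of the gene. With spread positions left out, 2 tumours with tamoxifen and 0 without remained.

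The upstream position was listed about as often without tamoxifen as with it. In JX it was found in 52 of 72 tumours with tamoxifen (72.2%) and 36 of 47 without (76.6%), in all 9 lanes. Tumours that listed it had 1 to 171 counts, with a median of 27.5 with tamoxifen and 29 without. Left-end reads there were always listed in the same orientation as Prkg1 and right-end reads always in the opposite one. The position was also listed by 13 animals or control DNAs outside both arms. The presence of this position in control DNA and in every lane is given as measured, and its source was not tested.

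Further JX positions of Prkg1 were listed in both arms. Position 31436492 in intron 2 was listed in JX by 35 tumours with tamoxifen (48.6%) and 22 without (46.8%), with 1 to 91 counts. 31358186 in intron 3 was listed by 14 (19.4%) and 7 (14.9%), and 30872971 in intron 5, close to the major site, by 7 (9.72%) and 10 (21.3%). In JX, 12 of 65 Prkg1 sites were listed in at least 3 tumours, against 11 of 354 in IR and 1 of 108 in PB. The upstream and intron 2 positions together held 82.5% of all Prkg1 JX counts without tamoxifen, and 56.8% with tamoxifen once the tumour of the intron 5 site was left out. Such positions were common in JX, where 46.9% of the 6454 called sites of all genes were spread, against 0.651% in IR and 1.48% in PB.

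**Figure D4:**
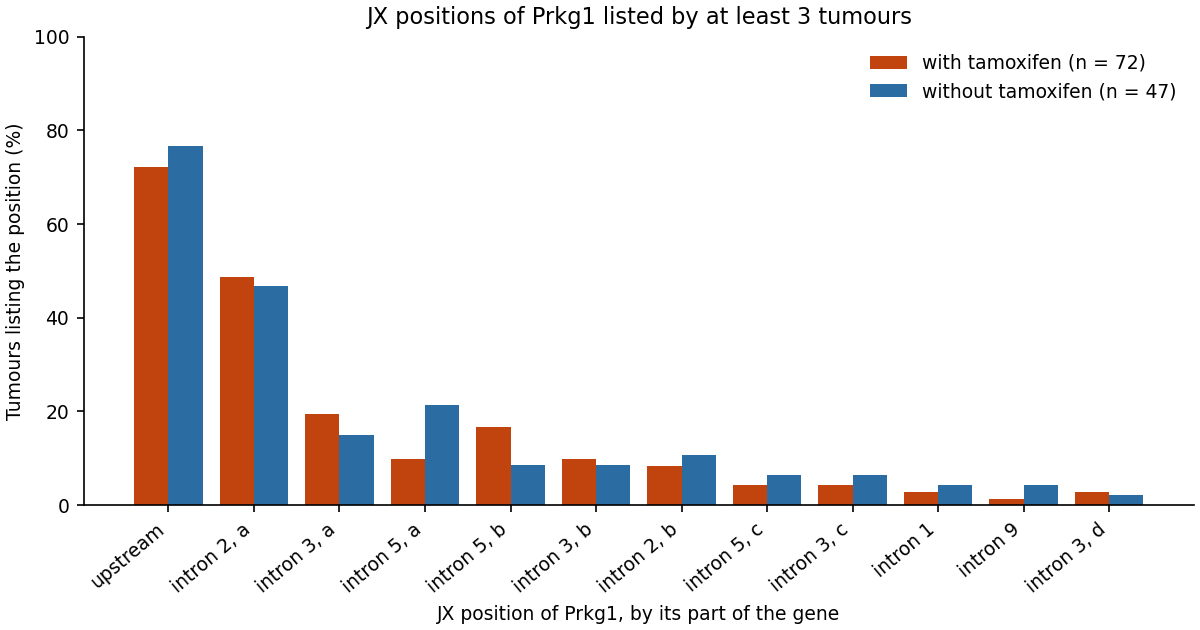
Percent of tumours with tamoxifen (n = 72) and without (n = 47) that list each of the 12 JX positions of Prkg1 found in at least 3 tumours, from the most to the least often listed. Bars start at 0; the upstream position reaches 72.2% and 76.6%, the first intron 2 position 48.6% and 46.8%, and both arms list each of the 12 positions.

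Which arm a spread position fell in depended on the rule of credit. When each tumour with a called site was counted, Prkg1 had called JX sites in 11 tumours with tamoxifen (15.3%) and 3 without (6.38%). All 3 untreated tumours had the upstream position, which was called in 7 with tamoxifen. Under this rule 79 of 1180 genes (6.69%) had none without tamoxifen, 8 (0.678%) had an unadjusted Fisher's exact p under 0.05, and 0 passed the adjustment. Values near the call threshold lay close together. The upstream position was called in a treated tumour at 1.09% of the highest site, with 45 counts, and not called in an untreated one at 0.903%, with 152 counts.

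Within lanes the credited JX sites were few. They fell in 2 of 11 treated tumours of lane 2, 2 of 5 of lane 6 and 2 of 8 of lane 8, against 0 of 4, 0 of 7 and 0 of 2 untreated tumours there. No credited site fell in the other 6 lanes. Without the animals of lane 2, 4 of 61 treated and 0 of 43 untreated tumours had one. By donor, the sites fell in 5 of 53 treated and 0 of 37 untreated tumours with the element on chromosome 10, and in 1 of 19 and 0 of 10 with chromosome 7.

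The second called IR site of Prkg1 lay in intron 2 at 31592993, in another treated tumour of lane 2. It held 8845 counts, 0.251% of the IR counts and 1.03% of the highest site, all from the right end, with 0 JX counts and 16 PB counts within 100 bp. The first site below the threshold was the intron 5 position in a treated tumour of lane 2, with 2675 counts at 0.367%. The second called PB site lay in intron 3 at 31221218, with 31 counts. IR and JX had no counts within 100 bp of it in that tumour.

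Insertions backed by more than 1 kind of library were then counted, by joining positions with gaps of up to 200 bp and asking for at least 10 counts in at least 2 kinds. This measure was added after the values were seen. Prkg1 had 46 such clusters in 35 tumours, 24 with tamoxifen (33.3%) and 11 without (23.4%), and ranked number 201 of the 11686 genes with any. Of these, 25 in 24 tumours lay at positions that at least 3 tumours listed in JX. The remaining 21 clusters lay in 11 tumours, 7 with tamoxifen and 4 without. They were unevenly spread over lanes, since 15 of the 21 came from 5 tumours of lane 1 and 7 from a single tumour. Most paired IR with PB (19 of 21), and 15 had 0 JX counts. Their IR counts ran from 13 to 8845 with a median of 112, and apart from the intron 2 site of 8845 counts none exceeded 0.0199% of a tumour's IR counts.

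Called JX sites of Prkg1 showed no lean in orientation. Orientation was not used to choose the gene. Left and right JX ends gave the same orientation at 0.974% of 17145 sites with both ends, so right-end orientations were turned over. After this 3 of the 6 credited sites ran with the gene and 3 against it (two-sided exact binomial p = 1, adjusted p = 1 over 31 genes). Of those 31 genes, 4 (12.9%) had an unadjusted exact p under 0.05 and 0 passed the adjustment. With 6 sites only an all-one-way split could pass an unadjusted 0.05.

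Prkg2 had no called site in any kind of library, in 0 of 119 tumours. Most genes had none, since 6.05% of all 22206 genes had a called site in IR, 16% in JX and 7.89% in PB. A floor of 3 tumours allows a share of up to 2.52%, and the Clopper-Pearson upper limit is 3.05%. Its highest values were 0.358% of the tumour's highest site in IR, 0.162% in JX and 0.534% in PB. Clusters with at least 10 counts in at least 2 kinds were found in 52.6% of all 22206 genes. Prkg2 had 4, of which 3 were with tamoxifen and 1 without. The untreated one, in intron 1, had 21 IR, 72 JX and 130 PB counts. Of the treated ones, a cluster 0.325 kb upstream had 507 IR and 145 PB counts, one in intron 14 had 285 IR and 194 JX counts, and one in intron 17 had 125 IR and 22 PB counts. None of these approached the major site of Prkg1, and no position of Prkg2 was listed in more than 7 tumours.

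Genes around the kinases in cGMP signalling were taken from 4 lists with 53 members in the table. In JX, 16 of them (30.2%) had a called site, against 16% of all 22206 genes. With spread positions left out, 8 (15.1%) had one, against 9.17% of all genes. In IR and in PB 6 of the 53 (11.3%) had one, against 6.05% and 7.89% of all genes. The list genes were listed by a median of 47 tumours, against 27 over all genes. No comparison with equally often listed genes was made, so these shares do not show an excess of the pathway. By group, JX sites were found in 4 of 20 genes for ligands, nitric oxide synthases and cyclases, 7 of 15 phosphodiesterases, 3 of 12 substrates and anchors and 2 of 6 cGMP-gated channels. No list gene passed Fisher's exact test between arms in any kind of library. 3 could be tested in JX, with a lowest unadjusted exact p of 0.277, and 1 each in IR (0.492) and PB (0.0794).

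Ppp1r12a, the targeting subunit of myosin phosphatase and a substrate of the kinase, had by far the most sites. It lies on chromosome 10, the donor of 90 animals. Its called IR sites fell in 17 treated and 8 untreated tumours. The JX sites fell in 14 treated and 12 untreated tumours, and the PB sites in 22 treated and 7 untreated. Npr3, a natriuretic peptide clearance receptor, had JX sites in 1 treated and 2 untreated tumours. It also had an IR site in 1 treated tumour, at 2.99% of IR counts. Pde3a, a phosphodiesterase inhibited by cGMP, had JX sites in 3 treated and 0 untreated tumours, all 3 at spread positions. Gucy1b2, a soluble cyclase subunit, and Pde1c, a calmodulin-dependent phosphodiesterase, had JX sites in 1 tumour of each arm. Of the called JX sites of phosphodiesterases 7 of 11 (63.6%) were at spread positions, and of those of the ligand, synthase and cyclase genes 5 of 7 (71.4%). Among those that were not spread, a Pde6a site (a photoreceptor phosphodiesterase subunit, named after its value was seen) held 4.02% of the JX counts of a treated tumour. Pde6a had no called site in IR or PB. Cngb3, a cGMP-gated channel subunit also named after its values were seen, had a called site in all 3 kinds. Each kind had it in 1 treated tumour, at 3.56% (IR), 2.71% (JX) and 0.620% (PB) of counts, at positions that were not spread.

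The genes whose credited JX tumours were most like those of Prkg1 shared 2 tumours with it. They were 1700112E06Rik, Eda, Grin2b, Grlf1 and Nebl, each with 3 tumours and a Jaccard index of 0.286 over 119 tumours, among 219 genes ranked. These genes tied and ties were ordered by symbol, so genes not named here may have the same index. With every tumour that has a called site counted, the most alike were Depdc5 (0.562, 9 shared tumours of 11), Slc25a21 (0.55, 11 of 17), Negr1, Ctbp2 and Rwdd3. Neither set shared a gene with the other. Under the second rule, 11 of the 14 treated Prkg1 sites and all 3 untreated ones were at spread positions. The part of such positions in the shared tumours was not tested.

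Of the animals outside both arms, the highest Prkg1 share in IR was 0.0790% among 5 control tumours and 0.163% among 7 control DNAs. In JX it was 0.0570% and 0.0501%. Called Prkg1 sites there lay at the upstream position in 1 control tumour (190 IR counts) and 3 control DNAs (10 to 49 JX counts). Of the 8 animals with no usable arm, 3 had a called JX site, with 204 and 56 counts at the upstream position and 48 counts at 31436492 in intron 2. The control samples thus held Prkg1 shares in the range of the tumours other than the one with the intron 5 site.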

How the data were processed

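The authors deposited raw counts per insertion position and library, and these were used unscaled. Coordinates are in mm9, the build named by the submitters' processing notes. The aligner, annotation and filters were not given in the sources used here. Per the labels' protocols, DNA was sheared to 300 bp, joined to splinkerette adaptors, cut with BamHI and amplified.

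Arms, ends, lanes and donors came from the authors' sample sheet. The animal was the replicate, with both ends and repeat lanes summed per kind of library. 7 animals were in 2 lanes, and 1 of these was joined from 2 spellings of its ID. Whether the animals are otherwise independent (litters) is not given. The p-values take tumours, or sites in the orientation test, as independent. For tumours with credited sites this does not hold, since credit to 1 tumour takes the site from the others. Otherwise it could not be checked. The 8 animals with no usable arm, 5 control tumours and 9 control DNAs entered no comparison. Positions with gaps of up to 10 bp were joined, which gave 2150 called IR, 6454 JX and 2910 PB sites. Genes credited in at least 3 tumours were tested with Fisher's exact test, two-sided, and orientation with an exact binomial test, both after trials on simulated data. The planted genes of those trials had more sites and larger differences between arms than Prkg1. The trials therefore do not show the power at the sizes tested here. Turning over right-end orientations was decided after the values were seen. Gene names are those of the table; 53 of 55 member and list symbols were current and 2 matched through a synonym.

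Named besides the members were list genes with called sites in at least 2 tumours of any kind (at most 8) and the 5 most similar genes by Jaccard index. En2, Pde6a and Cngb3 were named after their values were seen. A further result is not reported here. The members and lists were chosen with earlier results of these data known. Alternatives varied the count and percent minimums, joining distance, credit, spread positions and left-out tumours. Python 3.11.15, pandas 2.3.3, numpy 2.4.6 and scipy 1.17.1 were used.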

Additional observations from a re-analysis of the deposited data

Results flagged for a closer look

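Of the 8 animals with no usable arm, the highest Prkg1 share of JX counts was 0.0825%, above the highest share in control samples (0.0570%). Their highest Prkg2 share of IR counts was 0.00713%, above 0.00465% in control samples. Both lay in data that no comparison of arms used. Both were also below the highest values of compared tumours. Those reached 0.116% for Prkg1 in JX without the tumour of the intron 5 site, and 0.0240% for Prkg2 in IR. In 1 of the 8 animals the upstream position of Prkg1, which control DNAs also listed, held 0.072% of JX counts.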

How the results depend on the processing

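With at least 0.1% of the highest site in place of 1%, Prkg1 was called in 9 treated and 1 untreated tumours in JX, 7 and 1 in IR, and 6 and 4 in PB, Prkg2 in 3 treated tumours, and 32 cGMP genes (60.4%) had a JX site, against 46.3% of all genes. With at least 5%, Prkg1 was called in 1 treated tumour in each of JX, IR and PB. With at least 50 counts the treated number was 4 in JX and 1 in PB. With every called tumour counted, JX gave 11 and 3. With spread positions left out, JX gave 2 treated tumours, and 8 cGMP genes (15.1%, against 9.17% of all genes). Without the tumour of the intron 5 site, an alternative added after seeing the data, 1 treated tumour remained in IR and 1 in PB, and 5 in JX. Joining from the first position of a site, also added later, gave 7 and 0 in JX. At least 3 counts and joining within 100 bp left the Prkg1 and Prkg2 numbers at 6, 2, 2 and 0 treated tumours in JX, IR, PB and for Prkg2. Orientation as listed also gave 3 of 6. PB depth, down to 1714 counts, limits what could be called there. No paired analysis was possible because the arms share no replicate numbers; both arms are present in each lane and donor, for which the report gives counts without a test.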
